A study of Mus musculus with 6 samples.

Results

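The transcripts of 9 lysosomal cathepsins (Ctsa, Ctsb, Ctsc, Ctsd, Ctsh, Ctsk, Ctsl, Ctss and Ctsz) and of cystatin C (Cst3) were examined in RAW264.7, a line of mouse cells that resemble macrophages. These 10 genes were taken by symbol from a table of 56636 genes, and each symbol matched 1 row. Of the 6 libraries, 3 came from cells given 25-HC for 24 h and 3 from cells given vehicle for 24 h. All came from the same wild-type line, labelled as a mononuclear macrophage, and the labels used here give neither the dose of 25-HC nor the full name of the compound. RAW264.7 is a virus-transformed line grown for many passages, so it stands for primary macrophages only in part. The labels do not state whether each library had its own culture, so the spread behind every p-value is that among these libraries and could be technical. The series title refers to cholesterol homeostasis.

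Cathepsins are proteases that work mainly in the acidic lysosome, where they degrade proteins delivered by endocytosis, phagocytosis and autophagy. Most are cysteine proteases made as inactive precursors, while cathepsin D is an aspartic protease and cathepsin A a serine carboxypeptidase. Cystatin C is a secreted inhibitor of cysteine cathepsins. Macrophages are rich in these enzymes, which also cut the invariant chain of MHC class II and activate other proteases. Transcription factors of the MiT/TFE family (TFEB and its relatives) bind a short palindrome, the CLEAR element, in the promoters of many lysosomal genes.

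Promoter sequences are shown for the genes on which the results turn and in which a searched motif was found. RefSeq promoters of build GRCm38.p6, which is not the build named for the deposited table, covered 8 of the 10 genes with 9 start sites (all genes but Ctsb and Ctsh). They were searched on both strands for the CLEAR core TCACGTGA, for the E-box CACGTG that lies inside it, for the PU.1-like motif GAGGAAGT and for the sterol element core TCACCCCAC. The lines below give 271 bases each, 5′ to 3′ on the gene's strand, with 250 bases before the start base and 20 after it. Capitals mark the motifs.
Ctsd, chr7:142387807-142388077 (minus strand): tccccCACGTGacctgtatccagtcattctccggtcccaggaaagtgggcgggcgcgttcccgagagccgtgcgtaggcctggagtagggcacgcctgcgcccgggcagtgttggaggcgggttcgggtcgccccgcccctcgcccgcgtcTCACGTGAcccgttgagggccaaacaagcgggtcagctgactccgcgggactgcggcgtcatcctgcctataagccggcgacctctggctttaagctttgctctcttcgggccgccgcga
Ctsa, downstream of 2 start sites, chr2:164833523-164833793 (plus strand): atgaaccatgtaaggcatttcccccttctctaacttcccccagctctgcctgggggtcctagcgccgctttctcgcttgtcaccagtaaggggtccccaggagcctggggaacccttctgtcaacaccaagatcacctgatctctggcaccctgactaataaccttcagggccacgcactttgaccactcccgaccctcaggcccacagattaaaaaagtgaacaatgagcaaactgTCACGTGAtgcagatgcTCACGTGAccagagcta
Ctsl, chr13:64370500-64370770 (minus strand): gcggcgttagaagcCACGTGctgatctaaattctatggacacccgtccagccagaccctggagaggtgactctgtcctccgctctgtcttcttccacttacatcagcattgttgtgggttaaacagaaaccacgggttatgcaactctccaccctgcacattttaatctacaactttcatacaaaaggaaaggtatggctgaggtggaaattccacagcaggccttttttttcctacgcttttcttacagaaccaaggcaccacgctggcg
Ctss, chr3:95526536-95526806 (plus strand): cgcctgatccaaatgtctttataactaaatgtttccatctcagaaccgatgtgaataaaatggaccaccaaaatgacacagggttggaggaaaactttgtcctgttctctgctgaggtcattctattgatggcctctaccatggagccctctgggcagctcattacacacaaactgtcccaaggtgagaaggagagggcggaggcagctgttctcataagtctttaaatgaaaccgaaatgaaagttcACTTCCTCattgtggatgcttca

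The CLEAR core occurred once in the Ctsd promoter, its first base 99 bases before the start, and 2 times at the downstream start of Ctsa, 13 bases before the start and 4 bases after it. These were 2 of the 8 genes, and among 32851 promoters of the same length 0.974% held the motif. An E-box without the full core was found in Ctsl, 236 bases before the start, and in Ctsd, 245 bases before it (7.15% of all promoters held an E-box). The PU.1-like motif, read on the opposite strand, overlapped the start of Ctss and also occurred in Ctsc, 151 bases before the start (3.20% of all promoters). No window of the 9 held the sterol element core (0.551% of all promoters). These matches describe letters only and carry no statement about binding.

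Sequencing depth is unknown, because the deposited values are TPM, a relative abundance scaled for transcript length and for the library total. The 3 libraries given 25-HC were close to each other, and the vehicle libraries were not: 11971 to 12005 genes reached 1 TPM in 25-HC libraries, against 11238, 9492 and 11994 genes in vehicle 1, 2 and 3. Vehicle 2 stood furthest apart, with a Pearson r of 0.792 to 0.802 across genes to the 25-HC libraries, followed by vehicle 1 (0.924 to 0.931), while vehicle 3 was at 0.963 to 0.965. In vehicle 1 and vehicle 2 the longer transcripts were lower. In the longest sixth of genes the median log2 level relative to the 25-HC mean was -0.78 in vehicle 1, -1.63 in vehicle 2 and 0.04 in vehicle 3, and in the shortest sixth it was 0.18, -0.05 and 0.05. The levels below are therefore also set against vehicle 3, and differences are also given without vehicle 2. Of 10 macrophage markers 9 passed the filter on low values, and Mertk was listed at 0 in all 6 libraries. The summed level of the list was 2537 to 2558 TPM in 25-HC and 1735 to 2595 TPM in vehicle.

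As deposited, 7 of the 10 genes were abundant in every library, and in each of these 7 all 25-HC libraries lay above all vehicle libraries. The differences were very unequal: Ctsl, Ctss, Ctsb and Ctsa averaged 1.68-fold to 2.92-fold higher in 25-HC than in vehicle, Ctsd 1.45-fold, and Cst3 and Ctsz 1.14-fold and 1.11-fold. No gene of the group passed the test over all genes (limma on log2(TPM + 1), two-sided, Benjamini-Hochberg over the 12092 genes averaging 1 TPM or more, threshold 0.05; lowest adjusted p = 0.389). That test called 1 gene higher in the whole table (0.00827%) and none lower, with 1352 genes at an unadjusted p under 0.05. At that unadjusted level 3 of the 8 tested members were higher (Ctsd, Ctsb and Ctsl), beside 8.24% of all genes tested. Separation of the groups was common as well: 22.6% of all genes tested had every 25-HC library above every vehicle library. In bulk RNA, a change in the make-up of a culture cannot be told apart from a change of RNA per cell.

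Macrophage markers moved with the cathepsins in part. Of the 9 tested none was called. As deposited 5 were separated upward (Lyz2, Itgam, Adgre1, Ptprc and Fcgr1, beside 22.6% of all genes) and 1 downward (Cd68, beside 8.1% of all genes). After rescaling 3 were separated upward (Itgam, Adgre1 and Ptprc, beside 18.7% of all genes). Spi1 and Cd14 were then separated downward, beside 17.9% of all genes. The median log2 difference was 0.70, or 0.06 after rescaling. Lyz2, lysozyme, was at 870, 892 and 874 TPM in 25-HC, against 663, 366 and 649 TPM in vehicle, and the integrin gene Itgam was at 62.4 to 71.4 TPM in 25-HC and 0.53 to 51.0 TPM in vehicle. Cd68, a lysosomal membrane protein, was at 798 to 818 TPM in 25-HC and 818 to 836 TPM in vehicle, and Cd14, a lipopolysaccharide co-receptor, at 362 to 374 TPM in 25-HC and 354 to 560 TPM in vehicle. Itgam, Adgre1, Ptprc, Fcgr1 and Spi1 were named after their values were seen. The part of these markers in the differences of the cathepsins was not tested.

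**Figure D1:**
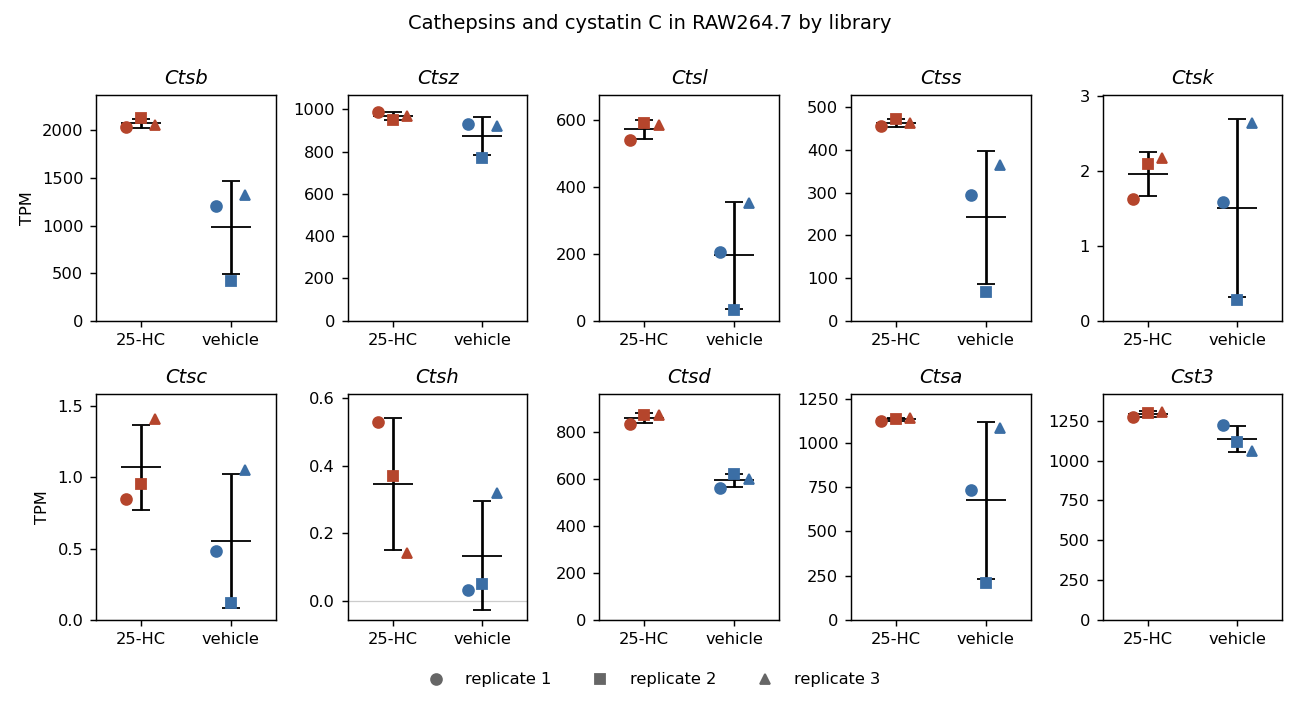
TPM (y axis, linear, from 0 or just below it) of the 9 cathepsins and of Cst3 in the 3 25-HC and the 3 vehicle libraries; symbols mark the replicate number, and bars give the mean and SD (n = 3). Vehicle 2 (square) is the lowest vehicle library for Ctsb, Ctsl, Ctss and Ctsa, whereas the 3 vehicle values of Ctsd lie between 561 and 618 TPM, all below the 25-HC libraries.

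Among the cysteine cathepsins, Ctsl encodes cathepsin L, an endopeptidase of broad activity. It was at 538, 590 and 585 TPM in 25-HC libraries 1, 2 and 3, against 205, 30.9 and 350 TPM in vehicle libraries 1, 2 and 3. All 25-HC libraries were above vehicle 3, the highest vehicle library, by 1.63-fold on average, and the vehicle libraries differed among themselves by 11.3-fold. Its log2 difference was the largest of the group (2.11, SE 0.85, limma adjusted p = 0.389, higher in 3 of 3 25-HC libraries than in any vehicle library). The near relatives of Ctsl expressed in rodent placenta (Cts3, Cts6, Cts7, Cts8, Ctsj, Ctsm, Ctsq, Ctsr and Ctsll3) were listed at 0 in all 6 libraries.

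Ctsb, which encodes cathepsin B, an endopeptidase that also trims dipeptides from the carboxyl end, was the most abundant of the 10 genes in the treated cells. It was at 2040, 2129 and 2061 TPM in 25-HC, against 1205, 421 and 1317 TPM in vehicle. The groups did not overlap, and the 25-HC mean was 1.58-fold above vehicle 3 (log2 difference over all libraries 1.25, SE 0.44, limma adjusted p = 0.389). Ctss encodes cathepsin S, which cuts the invariant chain in antigen-presenting cells. It was at 455, 473 and 464 TPM in 25-HC, against 296, 66.1 and 364 TPM in vehicle, again without overlap and 1.27-fold above vehicle 3 (log2 difference 1.26, SE 0.63, limma adjusted p = 0.389).

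Ctsz encodes cathepsin Z, a carboxypeptidase also called cathepsin X. It was at 986, 951 and 968 TPM in 25-HC, against 932, 771 and 920 TPM in vehicle. The groups did not overlap but lay close, with 951 TPM in 25-HC 2 and 932 TPM in vehicle 1, and the log2 difference of 0.15 (SE 0.15, limma adjusted p = 0.501) was no larger than its error.

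The other cysteine cathepsins were barely detected. Ctsk, the collagen-degrading cathepsin K of osteoclasts, was at 1.63, 2.09 and 2.17 TPM in 25-HC, against 1.59, 0.27 and 2.65 TPM in vehicle, and its groups overlapped (log2 difference 0.37, SE 0.43, limma adjusted p = 0.558). Its gene is the coding neighbour of Ctss in the RefSeq order, so that adjacent cathepsin genes stood at 1.73 and 353 TPM on average over the 6 libraries. Ctsc, which activates serine proteases of granules, and Ctsh, an aminopeptidase, had means of 0.81 and 0.24 TPM over the 6 libraries and did not pass the filter. Ctsc was at 0.85 to 1.41 TPM in 25-HC and 0.12 to 1.05 TPM in vehicle, and Ctsh at 0.14 to 0.53 TPM in 25-HC and 0.03 to 0.32 TPM in vehicle, with overlap in both.

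Ctsd encodes cathepsin D, the main aspartic protease of the lysosome. It was at 833, 871 and 870 TPM in 25-HC, against 561, 618 and 598 TPM in vehicle. The vehicle values spanned only 1.10-fold, so that the difference was nearly the same against each of them: 0.61, 0.47 and 0.52 on the log2 scale against vehicle 1, 2 and 3. This gave the smallest unadjusted p of the group (0.00898; log2 difference 0.53, SE 0.14, limma adjusted p = 0.389). Ctsa encodes the protective protein that stabilises neuraminidase 1 and beta-galactosidase besides its own peptidase activity. It was at 1125, 1138 and 1142 TPM in 25-HC, against 734, 206 and 1088 TPM in vehicle. The 25-HC libraries were above vehicle 3 by only 1.04-fold, and most of the log2 difference of 1.05 (SE 0.59, limma adjusted p = 0.389) came from vehicle 2, against which it was 2.45.

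Cst3, the inhibitor, was at 1271, 1299 and 1305 TPM in 25-HC, against 1225, 1118 and 1061 TPM in vehicle. No library overlapped between the groups, and unlike the genes that were low in vehicle 2 its lowest value was in vehicle 3 (log2 difference 0.19, SE 0.14, limma adjusted p = 0.414). The exact permutation test over the 6 libraries gave p = 0.1, the smallest that 3 against 3 allows, for each of these 7 genes, and p = 0.6 for Ctsk.

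**Figure D2:**
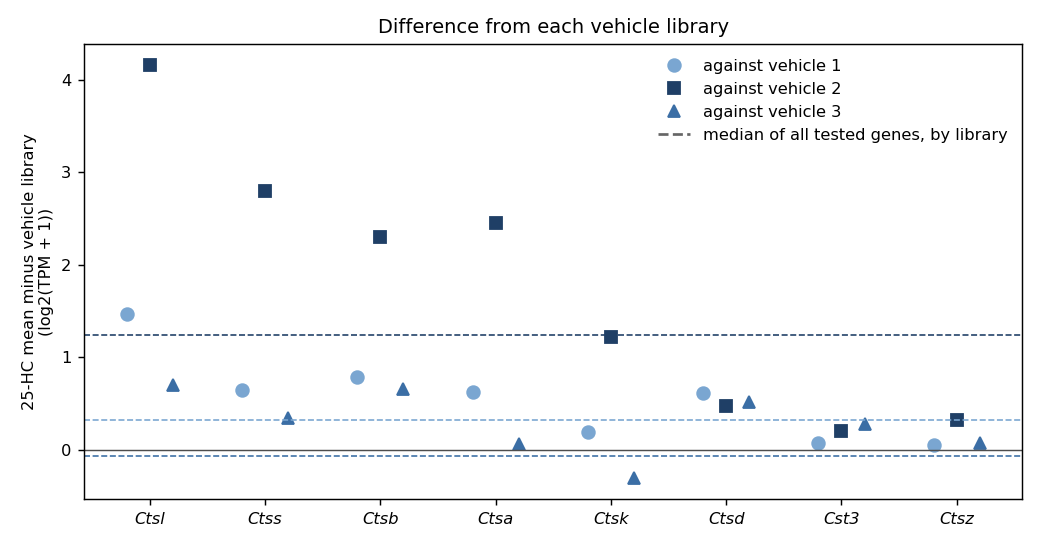
Mean of the 3 25-HC libraries minus each vehicle library on the log2(TPM + 1) scale (y axis) for the 8 genes that passed the filter (x axis); dashed lines give the median of all tested genes against the same library. Against vehicle 2 the differences run from 0.21 (Cst3) to 4.16 (Ctsl), while Ctsd lies between 0.47 and 0.61 against all 3.

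The whole table was shifted in the same direction, with a median log2 difference of 0.52 over all genes tested and of 0.79 over the 8 members. Relative to that shift, 5 of the 8 lay above it: Ctsl by 1.59, Ctss by 0.74, Ctsb by 0.73, Ctsa by 0.53 and Ctsd by 0.02. By definition as many of all genes tested lie above their median as below it, so this count does not set the members apart. Ctsk, Cst3 and Ctsz lay below it, at -0.15, -0.33 and -0.37. Rescaling each library to a common median ratio took the shift away (median 0.01 over all genes). There Ctsa, Ctsb, Ctsl and Ctss still had every 25-HC library above every vehicle library, 4 of 8 genes beside 18.7% of all genes tested upward and 17.9% downward. In these rescaled values Ctsl differed by 1.48, Ctss by 0.63, Ctsb by 0.61 and Ctsa by 0.41 on the log2 scale, whereas Ctsd (-0.10), Cst3 (-0.45) and Ctsz (-0.48) changed sign and overlapped. The scaling divided vehicle 2 by 0.409 and so lifted its Ctsd value to 1511 TPM, against 660 to 701 TPM in 25-HC.

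A correction for transcript length, which follows the trend in vehicle 1 and 2, left the same 4 genes separated upward, beside 17.1% of the 11132 genes with a known length (17.3% with the shortest coding transcript as length, which left the same 4). The log2 differences were then 1.34 for Ctsl, 1.05 for Ctss, 0.52 for Ctsb and 0.40 for Ctsa, against 2.11, 1.26, 1.25 and 1.05 without the correction. Lengths here are those of the longest annotated transcript of each gene. By that length Ctsl, with 6168 bases, was the longest of the 8 tested members and had the largest log2 difference against vehicle 2 (4.16). Cst3, with 860 bases, was the shortest and had the smallest (0.21). Ctsa (3646 bases) and Ctsb (4743 bases) differed from vehicle 2 by 2.45 and 2.30, Ctsz (1441 bases), Ctsk (1512 bases) and Ctsd (2127 bases) by 0.33, 1.22 and 0.47, and Ctss (1355 bases) by 2.79. With the shortest coding transcript as length, Ctsl had 1971 bases and was not the longest member. Ctsb then had 4743 bases, Ctsa 2534 bases and Ctsd 1922 bases. The part of the length trend in these differences was not tested beyond the 2 length corrections.

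Set against vehicle 3 alone, the library nearest to the treated ones, 5 of the 8 genes were called higher by limma, beside 4.52% of all genes (547 of 12092, with 765 called lower). These were Ctsl (log2 difference 0.70, adjusted p = 0.0306), Ctsb (0.66, adjusted p = 0.0174), Ctsd (0.52, adjusted p = 0.0239), Ctss (0.35, adjusted p = 0.0296) and Cst3 (0.28, adjusted p = 0.0301). Here the lone vehicle library is assumed to vary as little as the 25-HC libraries do, which the other vehicle libraries did not. Ctsa and Ctsz differed from vehicle 3 by 0.06 and 0.07 and were not called, and for Ctsk every 25-HC library lay below vehicle 3 (log2 difference -0.31, limma adjusted p = 0.266), as in 45.7% of all genes. The median log2 difference from vehicle 3 was 0.32 over the 8 members and -0.07 over all genes.

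Leaving out vehicle 2 lowered several differences by more than 1.5 times. On the log2 scale Ctsl was then at 1.09, Ctsb at 0.72, Ctss at 0.50 and Ctsa at 0.35, whereas Ctsd was at 0.57, Cst3 at 0.18, Ctsz at 0.06 and Ctsk at -0.06. No member passed (limma, lowest adjusted p = 0.0584 for Ctsb). The same 7 genes had separated groups, beside 23.6% of all genes, and the median log2 difference was 0.42 over the 8 members and 0.13 over all genes. Without vehicle 3 all 8 were separated, beside 59.5% of all genes.

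**Figure D3:**
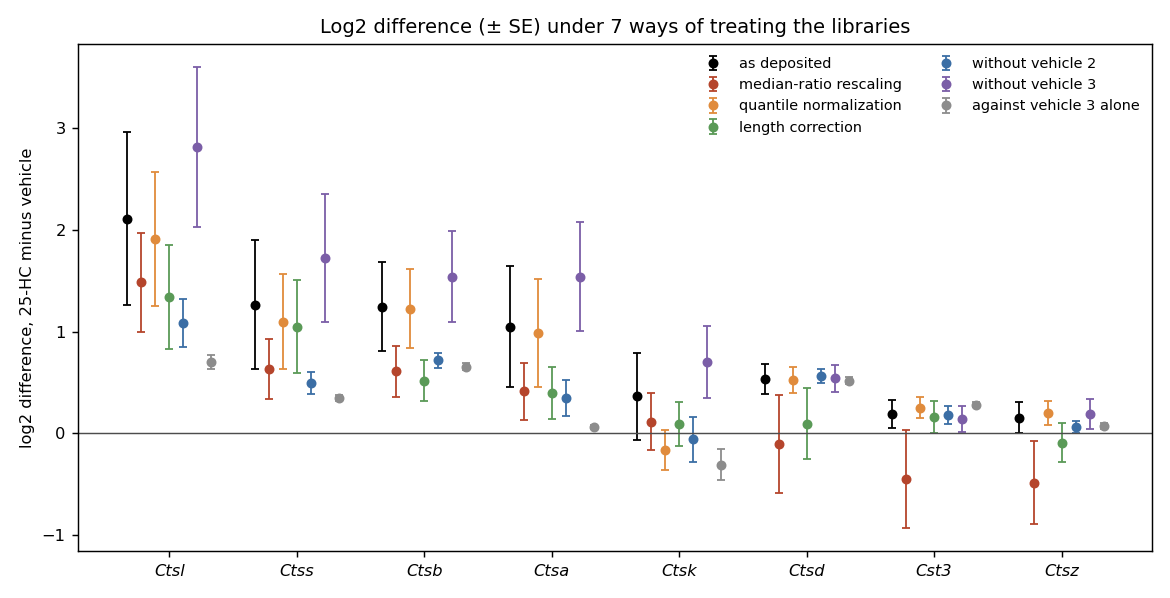
Log2 difference of 25-HC minus vehicle (y axis) with its SE for the 8 tested genes (x axis), under 7 ways of scaling or choosing the libraries. Ctsl, Ctss, Ctsb and Ctsa are above 0 in all 7, whereas Ctsd, Cst3 and Ctsz are below 0 after median-ratio rescaling; the small SE against vehicle 3 alone rests on the spread of the 25-HC libraries.

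The make-up of the transcripts of the 9 cathepsins was compared within each library, since a share does not depend on how that library is scaled. A share does depend on the genes summed. Ctse, a cathepsin gene outside the 9, was at 2194 to 2605 TPM in 25-HC. It was at 127, 88.6 and 2693 TPM in vehicle 1, 2 and 3. Shares of a sum that includes Ctse were not computed, so the results below hold for the 9 only. The 9 cathepsins summed to 5981, 6155 and 6093 TPM in 25-HC, against 3935, 2113 and 4640 TPM in vehicle. Ctsb made up 34.1%, 34.6% and 33.8% of that sum in 25-HC, against 30.6%, 19.9% and 28.4% in vehicle, and Ctsl 8.99%, 9.58% and 9.61% against 5.22%, 1.46% and 7.54%. For Ctsz the order was the opposite, with 16.5%, 15.5% and 15.9% in 25-HC and 23.7%, 36.5% and 19.8% in vehicle. These 3 shares did not overlap between the groups (exact permutation test, two-sided, p = 0.1 each, the smallest possible). The shares of Ctsa, Ctsd, Ctss, Ctsk, Ctsc and Ctsh overlapped. After the length correction the shares of Ctsl and Ctsz still did not overlap, while that of Ctsb did (31.6% to 33.0% in 25-HC, 24.6% to 34.1% in vehicle).

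On the deposited values the order of cathepsins L and S differed between the groups. Ctsl exceeded Ctss in each 25-HC library and was below it in each vehicle library: the ratio of Ctsl to Ctss was 1.18, 1.25 and 1.26 in 25-HC, against 0.695, 0.468 and 0.961 in vehicle (exact permutation p = 0.1, two-sided). After the length correction the ratio was 0.955 to 1.07 in 25-HC and 0.744 to 0.937 in vehicle, still without overlap but around 1 in the treated libraries. At 0.955 in 25-HC 1, Ctsl was then below Ctss there too. That correction took the longest transcript as length, and the ratio was not computed with the shortest coding transcript. With the latter the log2 differences of Ctsl and Ctss were 1.55 and 0.85, against 1.34 and 1.05 with the longest. The inhibitor was also compared with its targets. Cst3 relative to the summed TPM of the 7 cysteine cathepsins was 0.316, 0.313 and 0.320 in 25-HC, against 0.464, 0.867 and 0.359 in vehicle, without overlap. This ratio was not tested and was not computed after the length correction, and Cst3 was the shortest of the tested members. Against the sum of all 9 cathepsins, Cst3 equalled 21.1% to 21.4% in 25-HC and 22.9% to 52.9% in vehicle, or 25.0% to 25.9% in 25-HC and 26.2% to 32.8% in vehicle after the length correction (exact permutation p = 0.1 for both, two-sided). In level, the 10 genes of the 25-HC libraries ran Ctsb, Cst3, Ctsa, Ctsz, Ctsd, Ctsl, Ctss, Ctsk, Ctsc and Ctsh, with no overlap between neighbours. In vehicle the ranges of neighbouring genes overlapped through most of the order, and Ctsb was above Cst3 only in vehicle 3.

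**Figure D4:**
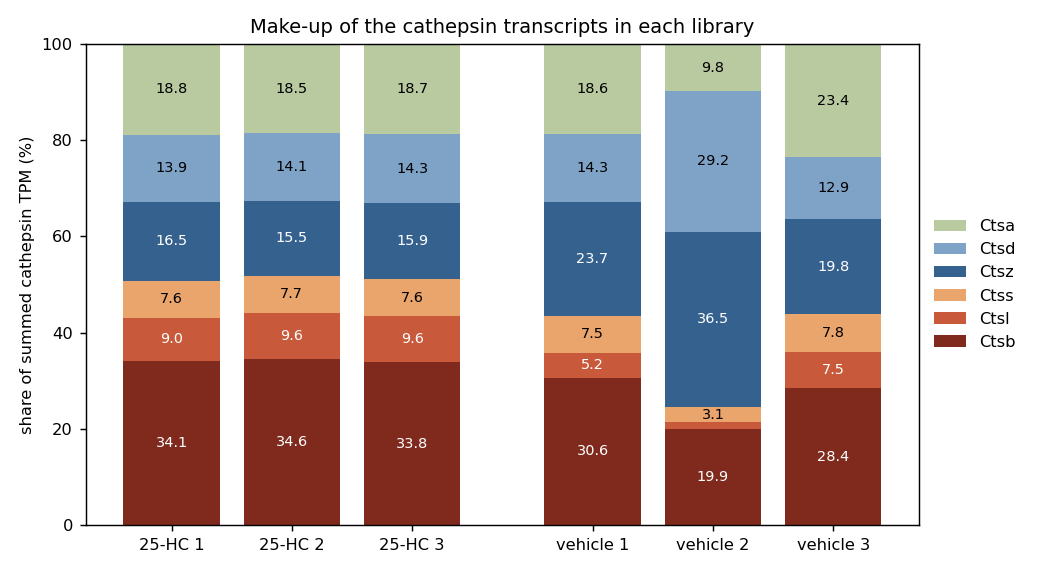
Share (y axis, percent) of 6 cathepsins in the summed TPM of the 9 cathepsins in each library (x axis); Ctsk, Ctsc and Ctsh are under 0.1% and not drawn. Ctsz takes 15.5% to 16.5% in 25-HC and 19.8% to 36.5% in vehicle, and Ctsl 8.99% to 9.61% in 25-HC and 1.46% to 7.54% in vehicle.

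Of 6 further proteases of the family (Ctse, Ctsf, Ctsg, Ctso, Ctsw and legumain), 3 passed the filter and none was called. Lgmn, the asparaginyl endopeptidase that processes cathepsin precursors, was at 480, 489 and 476 TPM in 25-HC, against 247, 66.9 and 321 TPM in vehicle, separated as deposited and after rescaling (log2 difference 1.46, and 0.83 after rescaling). Ctse, an aspartic protease of endosomes, was more abundant than any of the 9 cathepsins in 4 libraries and split the vehicle group. It was at 2540, 2194 and 2605 TPM in 25-HC, against 127, 88.6 and 2693 TPM in vehicle, so that vehicle 3 was with the treated libraries and the groups overlapped. Ctsf was at 26.7, 26.8 and 19.3 TPM in 25-HC, against 28.6, 23.5 and 26.3 TPM in vehicle.

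The other cystatins and stefins (9 listed, 4 tested) held none that was called, 1 separated upward (22.6% of all genes) and 1 downward (8.1% of all genes). After rescaling 1 was separated upward (18.7% of all genes) and 2 downward (17.9% of all genes). Cstb, the cytosolic inhibitor stefin B, was at 1033, 1042 and 1039 TPM in 25-HC, against 773, 189 and 811 TPM in vehicle (limma adjusted p = 0.389), and it was also separated after rescaling. Cst7, which inhibits cathepsin C among others, was at 8.27 to 8.37 TPM in 25-HC and 4.89 to 12.3 TPM in vehicle. Its groups overlapped as deposited and were separated downward after rescaling (log2 difference -0.62). Stfa2l1, a stefin, was separated downward as deposited and after rescaling, at 0.47 to 1.40 TPM in 25-HC and 1.91 to 3.32 TPM in vehicle.

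The genes that deliver hydrolases to lysosomes were called in no case (11 of 12 tested), with 6 separated upward as deposited (22.6% of all genes). These were Igf2r, Gnptab, Gnptg, Gga1, Gga2 and Scarb2, named after their values were seen. After rescaling 5 were separated upward (18.7% of all genes) and 1, Nagpa, downward (17.9% of all genes). Their median log2 difference was 0.79, or 0.20 after rescaling and 0.12 against vehicle 3 alone. M6pr, the cation-dependent mannose 6-phosphate receptor that carries cathepsin precursors, was at 156, 154 and 160 TPM in 25-HC, against 135, 45.3 and 215 TPM in vehicle. Its groups overlapped, as did those of Psap and Nagpa as deposited. Igf2r was at 29.4, 25.2 and 28.2 TPM in 25-HC, against 5.4, 0.8 and 22.6 TPM in vehicle (log2 difference 2.14, limma adjusted p = 0.389). The groups of Igf2r were separated as deposited and after rescaling. Psap, the precursor of the saposins, was at 299, 299 and 300 TPM in 25-HC, against 181, 48.5 and 301 TPM in vehicle, and Nagpa, which uncovers the mannose 6-phosphate tag, was at 47.9 to 52.0 TPM in 25-HC and 25.5 to 56.0 TPM in vehicle. The partners of cathepsin A overlapped in all 3 cases as deposited, with Neu1 at 51.0 ± 0.91 TPM in 25-HC and 39.9 ± 18.5 TPM in vehicle (SD, n = 3 each). After rescaling 1 of them, Glb1, was separated downward (log2 difference -0.51, beside 17.9% of all genes). Glb1 was at 36.0 to 38.6 TPM in 25-HC and 21.6 to 48.4 TPM in vehicle, and Galns at 9.81 to 12.6 TPM in 25-HC and 3.52 to 15.6 TPM in vehicle.

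Regulators of lysosomal genes, the MiT/TFE factors with their mTORC1 recruitment partners, had 8 of 10 genes tested, none called and 5 separated upward as deposited (22.6% of all genes). After rescaling 5 were separated upward (18.7% of all genes) and 1 downward (17.9% of all genes). The median log2 difference was 1.05, or 0.46 after rescaling and 0.13 against vehicle 3 alone. Rragd, another Rag GTPase, had the opposite direction, at 17.6, 8.08 and 2.26 TPM in 25-HC, against 22.9, 16.0 and 31.7 TPM in vehicle (log2 difference -1.53, limma adjusted p = 0.389). Its groups overlapped as deposited and were separated downward after rescaling. Flcn was at 19.2, 19.3 and 20.2 TPM in 25-HC, against 8.82, 0.52 and 15.7 TPM in vehicle (log2 difference 1.71, limma adjusted p = 0.389). Its groups were separated upward as deposited and after rescaling. Rragd and Flcn were named after their values were seen. Rraga, a Rag GTPase, was at 99.9, 98.6 and 102 TPM in 25-HC, against 48.5, 1.85 and 99.7 TPM in vehicle. Rragc was at 49.3 to 52.0 TPM in 25-HC and 11.8 to 45.1 TPM in vehicle. Mcoln1, the lysosomal calcium channel upstream of TFEB, was at 39.9, 33.2 and 29.7 TPM in 25-HC, against 16.8, 7.86 and 21.1 TPM in vehicle, 1.62-fold above vehicle 3. The factors themselves, named after their values were seen, differed. Tfeb was at 11.6 to 12.1 TPM in 25-HC and 6.95 to 11.0 TPM in vehicle. Tfe3 was at 28.9 to 29.8 TPM and 5.23 to 32.8 TPM, and Mitf at 4.17 to 4.75 TPM and 0.30 to 2.87 TPM. After rescaling Mitf was separated upward (log2 difference 1.01), while Tfeb (-0.28) and Tfe3 (0.32) overlapped. Tfec reached at most 0.03 TPM. Genes of class II antigen processing, in which cathepsin S takes part, differed in direction as deposited. Of 6 tested none was called, 2 were separated upward (22.6% of all genes) and 2 downward (8.1% of all genes). Their median log2 difference was -0.21, or -0.70 after rescaling and -0.44 after the length correction. After rescaling none was separated upward (18.7% of all genes) and 1 downward (17.9% of all genes). Cd74, the invariant chain itself, was at 656, 684 and 658 TPM in 25-HC, against 840, 882 and 693 TPM in vehicle, while Ifi30, a lysosomal thiol reductase, was at 478 to 491 TPM in 25-HC and 318 to 420 TPM in vehicle. H2-Eb1 was at 17.1 to 18.2 TPM in 25-HC and 16.6 to 23.0 TPM in vehicle.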

How the data were processed

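Total RNA of RAW264.7 cells was sequenced from TruSeq libraries, per the labels' protocols. The values, 1 TPM for each gene in each library, were used as the authors deposited them. HISAT2, StringTie, RSEM and GRCm39 are named in the submitters' processing notes, without versions. For annotation release and strand setting no source used here gives a value, so reads shared with overlapping RefSeq genes (of Ctsa, Ctsb, Ctss and Ctsz) cannot be assigned. TPM keeps no depth, and counting intervals were not possible.

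Titles gave each library's group and number, and 11 empty columns were ignored. A symbol shared by identifiers went to the one with the highest mean. Genes averaging 1 TPM or more were tested on log2(TPM + 1), a scale that understates differences of low genes, with limma 3.58.1 in R 4.3.3 (eBayes with trend), without a block. Per-group folds are ratios of mean TPM. The script was tested on simulated data. Further lists named in the text are described by the 3 genes with the highest mean TPM, since none was called, and by others where a sentence turns on them. Members, lists and settings were chosen with earlier results of these data known. Transcript lengths, of the longest transcript per gene unless stated, came from GENCODE release M21 (another build), by identifier, for 92.1% of tested genes. The length correction subtracted, per library, a loess trend (span 0.75, degree 2) of the deviation from the gene's mean on log length. Motifs were counted in RefSeq promoters of 300 bases. Python 3.11.15, pandas 2.3.3, numpy 2.4.6 and matplotlib 3.10.9 were used. Alternatives were other pseudocounts, filters, scalings and moderation, a replicate block, and leaving out libraries.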

Additional observations from a re-analysis of the deposited data

How the results depend on the processing

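The direction of Ctsa, Ctsb, Ctsl and Ctss was the same as on the deposited values in all 19 other settings tried. As deposited, 1 gene was called higher and none lower; the numbers were 0 higher with a pseudocount of 5, without a filter, with a mean of at least 5 TPM and with the replicate block, 1 lower under median-ratio scaling, 4 and 1 under quantile scaling, 16 and 3 after the length correction, 23 and 6 with the shortest coding transcript as length (chosen after seeing the data), and 547 and 765 against vehicle 3 alone. Leaving out 1 library gave 0 to 671 higher and 0 to 51 lower, the highest without vehicle 3. Of the members, 7 separated upward as deposited, 4 after median-ratio rescaling and after both length corrections, and 1 (Ctsk) lay downward against vehicle 3 alone. Leaving out 1 library gave 7 to 8. Their median log2 difference, 0.79 as deposited, was 0.26 after median-ratio rescaling, 0.28 and 0.19 after the length corrections, 0.32 against vehicle 3 alone, 0.49 over all 10 genes without a filter, and 0.42 to 1.12 with 1 library left out. Signs changed for Ctsd (-0.10), Ctsz (-0.48) and Cst3 (-0.45) after rescaling, for Ctsz (-0.094) after length correction, for Ctsd (-0.016), Ctsk (-0.088), Ctsz (-0.28) and Cst3 (-0.052) with the shortest coding length, and for Ctsk after quantile normalization (-0.16), against vehicle 3 alone (-0.31) and without vehicle 2 (-0.058, against 0.70 without vehicle 3). The differences in share changed sign without vehicle 2 for Ctsa (-2.36 percentage points), Ctsd (0.542) and Ctss (-0.0426), against 4.48, -7.63 and 2.32 without vehicle 3. For Ctsk it was 0.00568 without vehicle 3 and -0.0165 without vehicle 2. The cause of these changes was not tested. With the replicate block the members' values were the same and none was called (limma, lowest adjusted p = 0.415); same-numbered libraries deviated together with r of -0.013, 0.056 and 0.030, so the numbers were not taken as pairs. The depth behind these values is unknown.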

Other observations

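Osteoclast genes, of which Ctsk is 1, were tested in 6 of 9 further cases and none was called (limma). Their summed level was 96.3 to 102 TPM in 25-HC and 54.9 to 151 TPM in vehicle, with Calcr, the calcitonin receptor that marks mature osteoclasts, listed at 0 in all 6 libraries. Acp5, an acid phosphatase, was at 36.7 to 38.7 TPM in 25-HC and 30.7 to 41.9 TPM in vehicle. Dcstamp was at 29.6 to 35.5 TPM in 25-HC and 9.04 to 50.5 TPM in vehicle, and Nfatc1 at 18.7 to 21.8 TPM in 25-HC and 10.9 to 49.6 TPM in vehicle. All 3 overlapped as deposited. Of the 6 tested, 2 were separated upward as deposited (Mmp9 and Atp6v0d2, beside 22.6% of all genes) and none downward. Mmp9 was at 2.99 to 3.18 TPM in 25-HC and 1.47 to 2.40 TPM in vehicle. Atp6v0d2 was at 3.76 to 3.89 TPM in 25-HC and 1.24 to 3.45 TPM in vehicle. Both were named after their values were seen. After rescaling 3 of the 6 tested were separated downward, Acp5 and Nfatc1 among them, beside 17.9% of all genes, and none upward. Dendritic cell markers summed to 34.0 to 36.7 TPM in 25-HC and 16.2 to 33.2 TPM in vehicle, nearly all of it Cd83, while Clec9a was listed at 0 throughout. Neutrophil, lymphocyte, fibroblast and epithelial markers summed to at most 4.58, 3.60, 0.47 and 0.20 TPM in a 25-HC library and 3.88, 4.29, 0.10 and 0.26 TPM in a vehicle library.

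The 5 genes whose levels followed the mean profile of the 8 tested members most closely over the 6 libraries were Galk2, Nipsnap3b, Copz1, Ip6k2 and Ighm (Pearson r of 0.9993 to 0.9997, on log2(TPM + 1)). Such a profile was common, since 4005 of the 12084 other genes had an r of 0.95 or more. Among the members, Ctsa and Ctss were most alike (r of 0.994) and Ctsk and Cst3 least (r of 0.249), all points sharing the same 6 libraries. Galk2 was at 41.4, 46.5 and 45.5 TPM in 25-HC, against 24.8, 6.40 and 31.7 TPM in vehicle.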
